A study of Mus musculus with 24 samples.

Results

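The genes described here had less RNA in mouse fibroblasts with a Myc fusion protein than in fibroblasts with an empty vector. The same held with a form of the fusion called HEA. RNA-seq was run on 3T9 cells, an immortalised line of mouse fibroblasts, in 24 libraries that fall into 8 groups of 3. The cells had been infected with a vector for MycER in its WT, HEA or RA form or with an empty vector (EV), and all groups, EV included, were kept in OHT (4-hydroxytamoxifen) for 4 h or 8 h. No group was without OHT, so activation of MycER cannot be told apart from standing differences between the infected cells. The groups are called WT, HEA, RA and EV cells below. Expression is given as RPKM (reads scaled to gene length and library size), and differences as log2(RPKM + 0.5). The genes were chosen by these measured values themselves: 3 or more libraries had to reach an RPKM of 1, and the group mean had to lie 0.6 or more below that of EV cells of the same time in WT and in HEA cells, at both 4 h and 8 h. That held for 150 genes. Of these, 7 were among 10 genes that the rule names as left out, so 143 genes remained, 1.17% of the 12268 genes tested and part of 21671 measured.

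Myc is a transcription factor that binds DNA together with its partner Max, preferably at E-boxes, short sites with the core CACGTG. It is best known as an activator of genes for growth, but it also lowers many genes, among them genes of cell shape, adhesion and growth arrest in fibroblasts. In MycER, Myc is fused to the part of the oestrogen receptor that binds hormone, and the fusion stays inactive until OHT is added. The title of the study asks how Myc's contacts with DNA, specific and non-specific for sequence, are used in gene regulation. HEA is known as a form made to lose contacts with the bases, and RA as one made to lose contacts with the DNA backbone. Which residues differ was not stated in the labels, and EV cells, with no MycER form, also had Myc RNA.

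The libraries held 9.82 to 12.8 M reads (median 10.9 M), as recovered from the RPKM values. Esr1, the oestrogen receptor gene, part of which is in the constructs, had 9.04 to 13.7 RPKM in the 18 libraries with a MycER form. In the 6 EV libraries it had 0.099 to 0.385 RPKM. Myc had 29.0 to 68.3 RPKM over all libraries, and its group means were lowest in WT cells. At 4 h they were 40.9 RPKM in WT, 55.7 in HEA, 60.3 in RA and 57.2 in EV cells. At 8 h they were 38.8, 49.5, 63.1 and 58.2 RPKM in the same order. The part of the Myc level in the results was not tested. Summed levels of 12 fibroblast markers were 665 to 853 RPKM, those of 8 epithelial markers at most 1.37 RPKM with Epcam at 0, those of 7 endothelial markers at most 0.639 RPKM, those of macrophage markers 16.4 to 26.5 RPKM over 6 genes, and those of 7 adipocyte markers 2.71 to 6.98 RPKM. Sums of 6 genes listed for RNA quality were 451 to 501 RPKM in WT and 495 to 535 in HEA cells at 8 h. RA cells then had 461 to 483 and EV cells 434 to 439 RPKM, and at 4 h the ranges of all groups overlapped. Against EV cells at 8 h, 1 of 5 tested was higher in WT and 3 in HEA cells (limma, adjusted p under 0.05). 0 were lower, and 15.2% and 20.2% of all tested genes were higher. Kcnq1ot1 then had 9.25 RPKM in WT, 10.1 in HEA, 4.88 in RA and 4.14 in EV cells. The part of any of these lists in the results was not tested. In a principal component analysis, 3 libraries stood apart on component 3, which held 9.91% of the variance. These were EV replicate 2 and WT replicate 3 at 4 h and WT replicate 3 at 8 h, with absolute loadings over 0.4. No group was left out for it. The labels do not say whether the libraries of a group came from separate cultures, and the p-values below therefore speak of differences among these libraries, which may be technical. In bulk RNA, less RNA per cell and fewer cells with a transcript cannot be told apart.

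Promoters are shown for 6 genes, the 4 with the lowest mean difference from EV, and Agtrap and Cmklr1, the lowest of those holding CACGTG. They are RefSeq's, build GRCm38.p6, from 250 bases before to 50 bases after the start of the gene, read 5′ to 3′ on the gene's strand, with every CANNTG in capitals (N is any base, and the motif reads alike on both strands). Fblim1 lies at chr4:141606003-141606302, minus strand, Cd59a at chr2:104095551-104095850, plus strand, Fam110c at chr12:31073718-31074017, plus strand, Samd9l at chr6:3399522-3399821, minus strand, Agtrap at chr4:148088015-148088314, minus strand, and Cmklr1 at chr5:113643554-113643853, minus strand.
Fblim1: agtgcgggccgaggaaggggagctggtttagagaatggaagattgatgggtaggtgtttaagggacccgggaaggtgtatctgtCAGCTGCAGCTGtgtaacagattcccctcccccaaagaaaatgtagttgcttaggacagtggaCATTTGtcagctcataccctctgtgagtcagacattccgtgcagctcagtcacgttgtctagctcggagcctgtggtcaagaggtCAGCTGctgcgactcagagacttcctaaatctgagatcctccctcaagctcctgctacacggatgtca
Cd59a: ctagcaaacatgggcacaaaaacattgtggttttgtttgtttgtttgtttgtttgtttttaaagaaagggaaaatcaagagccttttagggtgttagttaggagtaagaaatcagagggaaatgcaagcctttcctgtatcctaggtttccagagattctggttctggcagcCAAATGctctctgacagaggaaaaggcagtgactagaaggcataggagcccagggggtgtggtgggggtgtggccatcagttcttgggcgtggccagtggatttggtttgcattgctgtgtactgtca
Fam110c: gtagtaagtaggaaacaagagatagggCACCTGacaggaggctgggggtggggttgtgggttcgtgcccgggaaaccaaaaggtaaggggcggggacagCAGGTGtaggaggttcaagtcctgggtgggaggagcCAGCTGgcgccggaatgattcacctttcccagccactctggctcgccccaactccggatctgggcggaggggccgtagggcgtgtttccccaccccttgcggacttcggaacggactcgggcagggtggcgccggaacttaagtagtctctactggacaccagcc
Samd9l: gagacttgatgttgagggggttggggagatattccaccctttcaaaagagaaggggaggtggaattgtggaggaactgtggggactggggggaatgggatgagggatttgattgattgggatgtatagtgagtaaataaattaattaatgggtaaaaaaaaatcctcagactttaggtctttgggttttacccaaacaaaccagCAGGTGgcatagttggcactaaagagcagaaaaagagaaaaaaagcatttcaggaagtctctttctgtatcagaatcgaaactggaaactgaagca
Agtrap: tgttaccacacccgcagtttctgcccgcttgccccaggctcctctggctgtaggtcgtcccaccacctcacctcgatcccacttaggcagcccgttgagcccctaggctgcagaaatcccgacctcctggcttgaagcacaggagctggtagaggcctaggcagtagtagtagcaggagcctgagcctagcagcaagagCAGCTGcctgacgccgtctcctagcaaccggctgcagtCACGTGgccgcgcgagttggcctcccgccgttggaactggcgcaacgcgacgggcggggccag
Cmklr1: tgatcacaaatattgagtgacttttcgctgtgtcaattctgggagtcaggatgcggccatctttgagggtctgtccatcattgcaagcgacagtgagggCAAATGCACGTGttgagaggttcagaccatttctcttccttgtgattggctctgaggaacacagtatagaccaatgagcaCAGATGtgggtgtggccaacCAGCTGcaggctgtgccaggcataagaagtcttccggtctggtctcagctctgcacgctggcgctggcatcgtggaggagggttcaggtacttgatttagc
The windows of Fblim1 and Cmklr1 hold 4 CANNTG matches each, that of Fam110c 3, that of Agtrap 2, and those of Cd59a and Samd9l 1 each. CACGTG, a special case of CANNTG, stands once in the windows of Agtrap and Cmklr1 and in none of the other 4. In Cmklr1 it directly follows a CAAATG. Of the 9513 promoters of tested genes in the same table, 10.4% hold CACGTG and 62.0% hold CANNTG. Of the 143 genes, 109 (76.2%) have a promoter there, of which 6.42% hold CACGTG and 62.4% hold CANNTG. Because fewer than 80% of the genes have a promoter in the table, the check of motif content over the set is void. A match is a string of letters and not a measured binding site.

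The median difference from EV over the 143 genes was -0.83 in WT and -0.95 in HEA cells at 4 h, and -1.03 in WT and -0.99 in HEA cells at 8 h. The same differences had a median over all tested genes of -0.01, -0.06, -0.02 and -0.05. The largest single difference was -2.07 (Agtrap in HEA cells at 8 h). These values are a description, since they were used to pick the genes. In RA cells, which the rule did not use, the median was -0.16 at 4 h and -0.14 at 8 h, against 0.02 and 0.00 over all tested genes. The plot by library shows the genes in the 12 roles into which they were sorted. That each role lies low in WT and HEA cells follows from the rule.

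**Figure D1:**
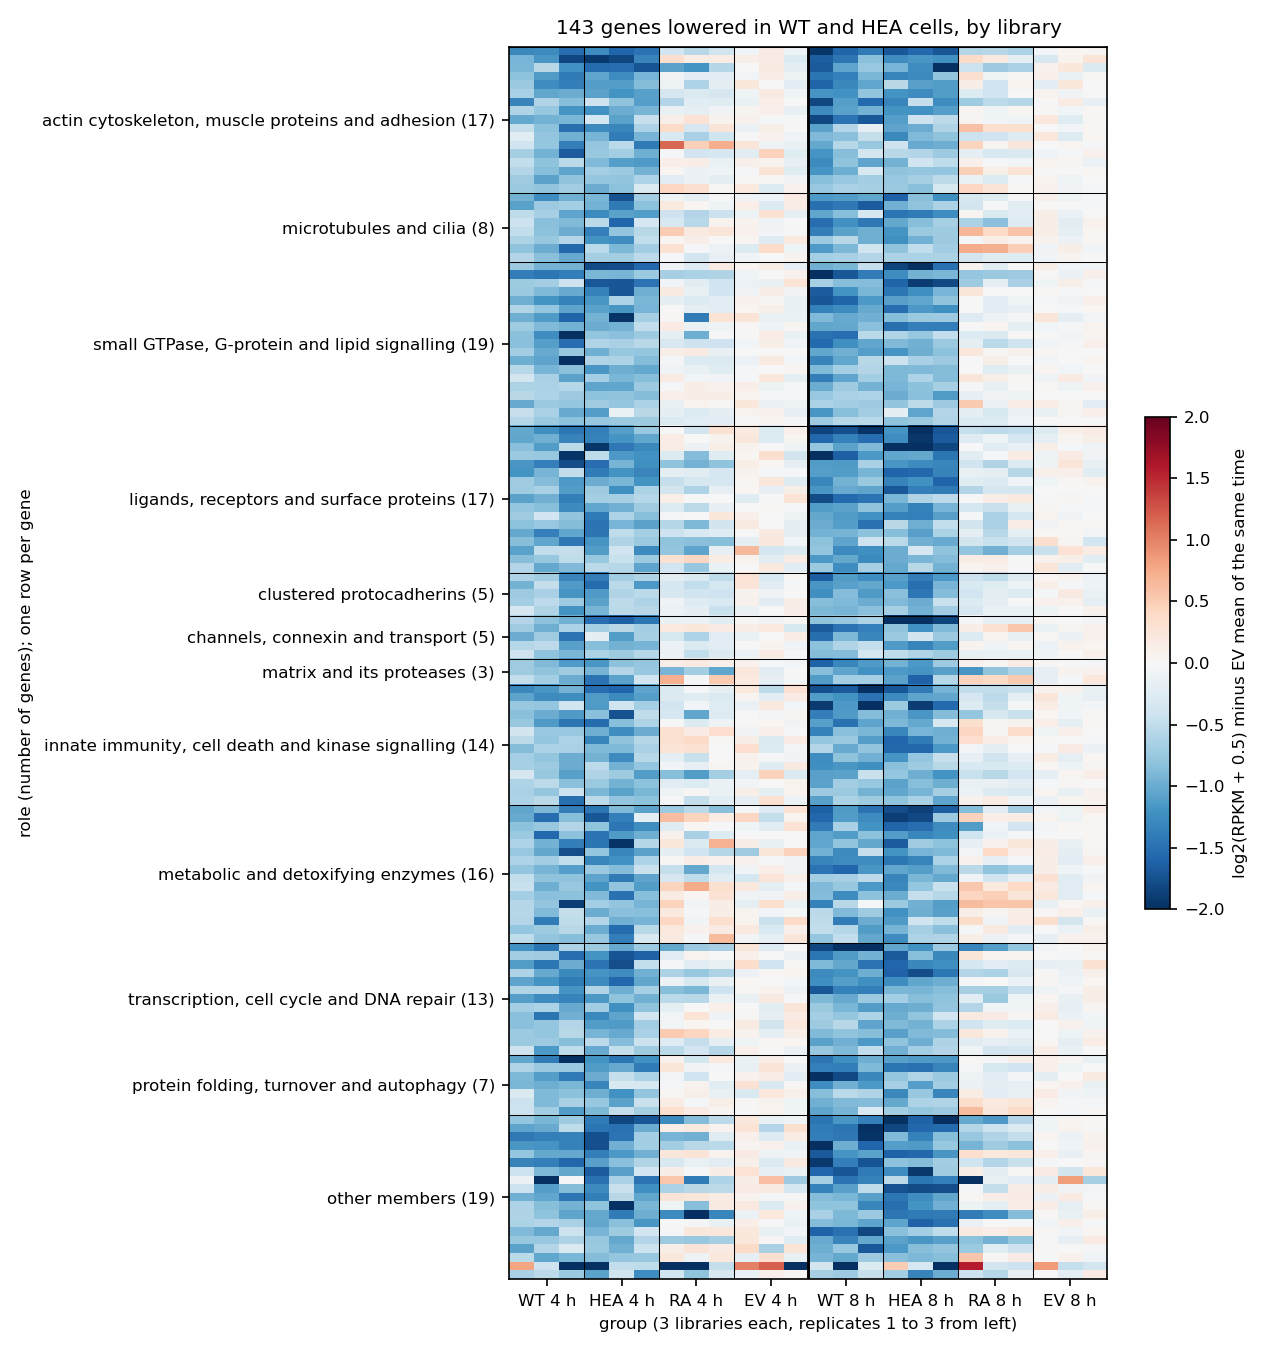
Each row is 1 of the 143 genes, sorted by role, and each column 1 library, with 3 libraries per group and groups in the order WT, HEA, RA and EV at 4 h and then at 8 h. Colour gives log2(RPKM + 0.5) minus the EV mean of the same time. WT and HEA columns are blue in nearly all rows, since the rule holds their group means below EV. RA columns are paler, with a median of -0.16 at 4 h and -0.14 at 8 h.

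The 3 genes nearest to the cut-off inside it were Als2cl, Pld2 and Lbh, whose weakest differences were -0.60 in HEA cells at 4 h. The 3 nearest outside were Ppp2r5b, Hid1 and Pcdhb14, each also at -0.60 when rounded, and lying just above the cut-off. Als2cl, a relative of the guanine nucleotide exchange factor alsin, had 6.85, 13.9 and 10.2 RPKM in HEA cells at 4 h, against 16.1, 16.3 and 13.6 RPKM in EV cells. HEA replicate 2 of Als2cl lay above the lowest EV library, so the groups overlapped. Ppp2r5b, a regulatory subunit of protein phosphatase 2A left outside, had 13.7, 11.5 and 11.7 RPKM in WT cells at 4 h, against 19.0, 20.7 and 17.1 RPKM in EV cells. All 3 WT libraries of Ppp2r5b lay below all 3 EV libraries. Pld2 (phospholipase D2) had 4.64, 4.47 and 4.83 RPKM in HEA cells at 4 h, against 7.03, 8.01 and 6.93 RPKM in EV cells. Lbh, a transcription cofactor, had 10.5, 8.15 and 11.3 RPKM in HEA cells at 4 h, against 14.4, 15.8 and 15.8 RPKM in EV cells. Neither Pld2 nor Lbh overlapped between these groups. Hid1, a protein of dense core vesicle formation, had 2.63, 3.63 and 3.41 RPKM in HEA cells at 8 h, against 5.55, 4.91 and 4.88 RPKM in EV cells. Pcdhb14, a protocadherin, had 2.19, 3.16 and 3.73 RPKM in HEA cells at 4 h, against 5.39, 4.15 and 4.77 RPKM in EV cells. Hid1 and Pcdhb14 were lower in every HEA library than in every EV library of that time.

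Genes of the actin cytoskeleton, muscle proteins and adhesion made up 17 of the 143. Median differences from EV over these genes were -0.89 in WT and -1.04 in HEA cells at 4 h, -1.06 in WT and -0.92 in HEA cells at 8 h, and -0.16 and -0.03 in RA cells at 4 h and 8 h. Fblim1, which encodes migfilin, a filamin-binding protein of cell-matrix adhesions, had the lowest mean of the 4 differences of all 143 genes, -1.53. Fblim1 at 4 h had 6.04, 6.2 and 5.11 RPKM in WT cells, 6.18, 4.82 and 5.28 in HEA cells, 11.8, 10.4 and 11.7 in RA cells and 15.0, 17.4 and 14.4 in EV cells. Its values at 8 h were 4.55, 5.9 and 6.82 RPKM in WT cells, 5.54, 6.08 and 5.42 in HEA cells, 12.4, 12.7 and 12.1 in RA cells and 18.3, 19.4 and 19.2 in EV cells. Every WT and HEA library of Fblim1 lay below every RA library, and every RA library below every EV library, at both times. Lmod1 encodes leiomodin 1, an actin nucleator of smooth muscle. Lmod1 at 4 h had 1.52, 1.22 and 0.594 RPKM in WT cells, 0.506, 0.594 and 1.04 in HEA cells, 4.34, 3.76 and 3.77 in RA cells and 3.66, 3.8 and 2.68 in EV cells. Lmod1 at 8 h had 0.386, 0.517 and 1.06 RPKM in WT cells, 0.679, 0.744 and 0.693 in HEA cells, 3.11, 2.65 and 1.93 in RA cells and 1.72, 2.4 and 2.82 in EV cells. RA and EV libraries of Lmod1 overlapped at both times, while all WT and HEA libraries lay below them. The other genes of this role were Ankrd1 (a muscle ankyrin repeat protein and known YAP target), Tnnt2 (cardiac troponin T), Speg (a muscle kinase), Pdlim2, Lims2 and Lmcd1 (LIM domain proteins), Afap1 and Cotl1 (actin-binding proteins), Mical1 (an oxidase that takes actin filaments apart), Kank1 (an adhesion adaptor), Itga2 (integrin alpha 2), Jup (plakoglobin), Gem (a small GTPase that acts on the cytoskeleton), Pacsin3 (a membrane-bending protein) and Frmd8. Tnnt2 belongs to a list of 7 muscle markers whose summed level was 5.70 to 7.64 RPKM in WT, 3.24 to 4.11 in HEA, 8.35 to 10.5 in RA and 9.20 to 11.2 in EV cells at 4 h. At 8 h it was 3.32 to 4.86 RPKM in WT, 2.58 to 4.26 in HEA, 6.12 to 7.08 in RA and 8.04 to 9.26 in EV cells. These sums include Tnnt2, which the rule chose as low in WT and HEA cells, so they are not independent of the rule. Tnnt2 alone had a mean of 1.91 RPKM in WT, 1.54 in HEA, 2.97 in RA and 4.79 in EV cells at 8 h. Only 2 of the 7 markers passed the filter on RPKM. The list's Myod1 was at 0 in all libraries, and the part of muscle markers in these results was not tested.

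The 8 genes of microtubules and cilia were Tubb2b (a beta tubulin), Ttll1 (a tubulin polyglutamylase subunit), Nicn1 (a subunit of the same complex), Map1a and Clip2 (microtubule-binding proteins), Klc4 (a kinesin light chain), Cep120 (a centriole protein) and Spata6. Their medians against EV were -0.79 in WT and -0.94 in HEA cells at 4 h, -0.96 in WT and -0.86 in HEA cells at 8 h, and -0.02 and -0.17 in RA cells at 4 h and 8 h. Map1a had 4.4 ± 1.3 RPKM in WT cells and 4.82 ± 0.58 in HEA cells at 8 h, while RA cells had 12.7 ± 1.2 and EV cells 7.93 ± 0.59 (SD, n = 3 each). RA cells thus stood higher than EV cells for Map1a by 0.65 ± 0.2 (SE), with an adjusted p of 0.0798 by limma, short of the threshold of 0.05. In the authors' deposited table Map1a was called higher in RA cells at 8 h, with a log2 fold change of 0.61 and an adjusted p of 1.2e-12.

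Signalling by small GTPases, G proteins and lipids took 19 genes, with Arhgef10, Arhgef19 and Plekhg2 (exchange factors for small GTPases), Rab13, Cyth2 (an Arf exchange factor), Als2cl, Rgs12 and Rgs17 (brakes of G protein signalling), Pld2, Mtmr11 and Mtmr14 (myotubularin family), Pde6d (a carrier of prenylated proteins), Flot1 and Rftn2 (lipid raft proteins), Nyap1 (an adaptor of phosphoinositide 3-kinase), Numb (an inhibitor of Notch), Tax1bp3, Fchsd1 and Prune2. Over the group, medians against EV were -0.84 in WT and -0.84 in HEA cells at 4 h, -0.97 in WT and -0.88 in HEA cells at 8 h, and -0.16 and -0.11 in RA cells at 4 h and 8 h. Nyap1 was the lowest of them by mean difference. In HEA cells it was lower than in WT cells at both times. Nyap1 at 4 h had 2.34, 1.97 and 1.98 RPKM in WT cells, 0.881, 0.888 and 1.1 in HEA cells, 4.01, 3.47 and 4.81 in RA cells and 4.4, 4.69 and 3.74 in EV cells. The 8 h libraries of Nyap1 had 2.21, 2.31 and 3.32 RPKM in WT cells, 0.964, 0.783 and 1.37 in HEA cells, 5.06, 4.07 and 4.77 in RA cells and 5.2, 4.57 and 4.58 in EV cells. The libraries of Nyap1 kept the order HEA below WT below RA and EV at both times, with RA and EV overlapping.

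Ligands, receptors and other surface proteins made up 17 genes. Among the ligands were Sema7a (a semaphorin), Efnb1 and Efna4 (ephrins), Pgf (placental growth factor) and Fgf21, and among the receptors and their partners Cmklr1 (a chemerin receptor), Il18rap (of the interleukin-18 receptor), Lag3 (an inhibitory receptor known from T cells) and Agtrap (a partner of the angiotensin II receptor). Gpc2 (a glypican), Cd59a (an inhibitor of complement), Emp2, Cmtm3 and the tetraspanins Tspan2, Tspan11 and Tspan17 were also in this role. The median differences from EV were -0.91 in WT and -0.95 in HEA cells at 4 h, -1.08 in WT and -1.17 in HEA cells at 8 h, and -0.32 and -0.30 in RA cells at 4 h and 8 h. Cd59a had the lowest mean difference after Fblim1, -1.47. Cd59a at 4 h had 6.24, 5.32 and 4.5 RPKM in WT cells, 4.76, 5.85 and 7.6 in HEA cells, 13.1, 10.1 and 16.3 in RA cells and 14.9, 10.7 and 14.2 in EV cells. Its values at 8 h were 2.87, 3.09 and 2.63 RPKM in WT cells, 4.88, 1.93 and 3.19 in HEA cells, 8.21, 7.96 and 8.14 in RA cells and 9.54, 12.6 and 13.1 in EV cells. RA libraries of Cd59a overlapped with EV libraries at 4 h and lay below them at 8 h, above all WT and HEA libraries. Tspan2 encodes a tetraspanin best known from the nervous system and smooth muscle. Tspan2 at 4 h had 1.25, 1.35 and 0.936 RPKM in WT cells, 0.918, 1.1 and 1.26 in HEA cells, 3.48, 3.1 and 3.28 in RA cells and 3.73, 2.47 and 3.24 in EV cells. Tspan2 at 8 h had 0.57, 0.752 and 0.607 RPKM in WT cells, 0.841, 0.324 and 0.506 in HEA cells, 2.16, 2.46 and 2.01 in RA cells and 2.32, 2.8 and 2.96 in EV cells. Its WT and HEA levels at 8 h were all under 1 RPKM. Agtrap, like Nyap1, was lower in HEA than in WT cells. Agtrap at 4 h had 2.28, 1.79 and 2.93 RPKM in WT cells, 0.787, 1.35 and 1.54 in HEA cells, 4.99, 4.11 and 4.87 in RA cells and 4.75, 4.49 and 4.2 in EV cells. The 8 h libraries of Agtrap had 3.34, 2.62 and 3.05 RPKM in WT cells, 0.861, 1.0 and 1.36 in HEA cells, 6.0, 5.07 and 5.42 in RA cells and 6.55, 5.83 and 5.75 in EV cells. No WT library of Agtrap reached an RA or EV library, and no HEA library reached a WT library. Emp2, an epithelial membrane protein family member, had the highest mean level of all 143 genes, 25.2 RPKM. Emp2 at 4 h had 22.5, 23.5 and 16.8 RPKM in WT cells, 22.5, 15.6 and 23.7 in HEA cells, 28.7, 24.1 and 33.1 in RA cells and 38.1, 33.2 and 40.3 in EV cells. Its values at 8 h were 16.2, 18.1 and 17.5 RPKM in WT cells, 11.1, 14.0 and 13.6 in HEA cells, 24.4, 29.1 and 28.6 in RA cells and 37.0, 37.3 and 36.7 in EV cells. At 8 h its RA libraries stood between those of the other forms and EV.

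The clustered protocadherins, cell adhesion proteins encoded side by side on chromosome 18, were represented by Pcdhb15, Pcdhb16, Pcdhb17, Pcdhb20 and Pcdhb21. Median differences from EV over these genes were -0.85 in WT and -0.76 in HEA cells at 4 h, -1.08 in WT and -1.05 in HEA cells at 8 h, and -0.34 and -0.22 in RA cells at 4 h and 8 h. The table holds 22 genes of this family, 10 were tested and 5 met the rule. All 10 lay below EV in all 4 differences with WT and HEA cells, which the rule fixed for the 5 members. For the tested genes outside the set, the weakest of the 4 differences ran from -0.60 (Pcdhb14) to -0.44 (Pcdhb19). The share of all tested genes below EV in all 4 differences is not given. Pcdhb17 had 4.82 ± 0.98 RPKM in WT, 5.29 ± 0.61 in HEA, 9.63 ± 0.9 in RA and 12.8 ± 0.87 in EV cells at 8 h (SD, n = 3 each). These genes are related in sequence, how the counting treated reads that match several of them is not stated, and they are not independent cases. Of all 143 genes, 11 (7.69%) lie on chromosome 18, where 2.63% of the tested genes lie.

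Channels and transport had Gja4 (connexin 37), Kcnk2 (a potassium channel), Lrrc8e (of the volume-regulated anion channel), Slc2a10 (a glucose transporter family member) and Sfxn3 (a mitochondrial serine carrier). Their medians against EV were -0.78 in WT and -0.65 in HEA cells at 4 h, -0.73 in WT and -0.96 in HEA cells at 8 h, and -0.21 and -0.12 in RA cells at 4 h and 8 h. Sfxn3 had the highest level after Emp2 and Mmp11, with a mean of 23.7 RPKM. Sfxn3 at 4 h had 24.2, 18.4 and 17.1 RPKM in WT cells, 20.8, 19.8 and 21.7 in HEA cells, 30.1, 23.0 and 26.9 in RA cells and 29.9, 36.5 and 31.7 in EV cells. Sfxn3 at 8 h had 15.1, 15.1 and 21.8 RPKM in WT cells, 19.5, 18.4 and 17.0 in HEA cells, 25.2, 25.5 and 25.7 in RA cells and 26.0, 28.2 and 30.2 in EV cells. WT and HEA libraries of Sfxn3 stayed below all EV libraries of their time.

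The matrix genes were Mmp11 and Mmp19, both matrix metalloproteinases, and Srpx2, a secreted protein of blood vessel growth and synapses. Over the group, medians against EV were -0.74 in WT and -0.92 in HEA cells at 4 h, -1.04 in WT and -1.08 in HEA cells at 8 h, and 0.14 and 0.10 in RA cells at 4 h and 8 h. Mmp11 had the highest mean level after Emp2, 24.5 RPKM. Mmp11 at 4 h had 20.8, 18.6 and 15.5 RPKM in WT cells, 15.2, 19.4 and 19.9 in HEA cells, 38.0, 39.4 and 37.0 in RA cells and 36.5, 34.1 and 33.1 in EV cells. The 8 h libraries of Mmp11 had 9.17, 11.6 and 13.0 RPKM in WT cells, 14.9, 12.9 and 17.5 in HEA cells, 31.2, 30.2 and 32.5 in RA cells and 29.8, 29.1 and 28.8 in EV cells. RA libraries of Mmp11 lay above all EV libraries at both times, but the differences of 0.14 ± 0.12 and 0.10 ± 0.12 did not pass (adjusted p = 0.556 and 0.732, limma).

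Innate immunity, cell death and kinase signalling held 14 genes: Samd9l (an interferon-induced antiviral factor), Tlr2 (a receptor for bacterial lipoproteins), Tmem173 (STING, which relays cytosolic DNA), Irak2 and Traf5 (adaptors), Apobec3 (a cytidine deaminase against retroviruses), Cflar (an inhibitor of caspase 8), Casp6, Optn (an autophagy receptor), Tnfaip8l1, Ptk2b (the kinase PYK2), Mapk3 (ERK1), Nfatc4 and Ctla2b (a protease inhibitor). The median differences from EV were -0.76 in WT and -0.91 in HEA cells at 4 h, -1.02 in WT and -0.99 in HEA cells at 8 h, and -0.18 and -0.24 in RA cells at 4 h and 8 h. Samd9l lay furthest below EV cells among these by mean difference. Samd9l at 4 h had 2.67, 2.97 and 3.53 RPKM in WT cells, 2.19, 2.09 and 3.24 in HEA cells, 5.87, 7.13 and 6.33 in RA cells and 8.51, 4.92 and 9.03 in EV cells. Its values at 8 h were 2.89, 3.08 and 2.25 RPKM in WT cells, 3.05, 3.85 and 5.51 in HEA cells, 7.63, 7.66 and 7.92 in RA cells and 11.7, 11.5 and 9.8 in EV cells. The lowest EV library of Samd9l at 4 h is replicate 2, one of the libraries that stood apart, and it lay below all RA libraries of that time. At 8 h the RA libraries of Samd9l lay between the other forms and EV.

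Enzymes of metabolism and detoxification numbered 16: Cyp39a1 (a hydroxylase of bile acid synthesis), Cyp26b1 (which breaks down retinoic acid), Hsd17b11 and Hsdl2 (dehydrogenases of steroids and lipids), Akr1b8, Gstm2 (a glutathione transferase), Tst (rhodanese), Gch1 (the first enzyme of tetrahydrobiopterin synthesis), Gnpda1, Osgin1, Ddah2, Plin3 (a coat protein of lipid droplets), Nudt22, Mettl7a1, Scrn1 and Hdhd3. Median differences from EV over these genes were -0.80 in WT and -1.05 in HEA cells at 4 h, -0.96 in WT and -1.04 in HEA cells at 8 h, and 0.12 and 0.02 in RA cells at 4 h and 8 h. Cyp39a1 was a gene of low level. Cyp39a1 at 4 h had 0.559, 0.657 and 0.333 RPKM in WT cells, 0.297, 0.675 and 0.536 in HEA cells, 0.819, 0.99 and 0.717 in RA cells and 1.63, 1.31 and 2.14 in EV cells. Cyp39a1 at 8 h had 0.264, 0.581 and 0.357 RPKM in WT cells, 0.195, 0.15 and 0.256 in HEA cells, 0.81, 1.53 and 0.997 in RA cells and 1.79, 1.73 and 2.12 in EV cells. Its RA libraries lay below all EV libraries at both times, and its WT and HEA libraries below all RA libraries.

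Transcription, the cell cycle and DNA repair had 13 genes: Mxd3 (a Max-binding member of the family of Myc's antagonists), Pou6f1 and Zscan2 (DNA-binding proteins), Sertad3, Lbh and Wbp2 (cofactors), Prmt2 (an arginine methyltransferase), Hexim2 (an inhibitor of the elongation factor P-TEFb), Mastl (the mitotic kinase Greatwall), Rad51c (of homologous recombination), Arc (an immediate early gene of neurons), Kctd11 (an adaptor of Hedgehog signalling) and 1810011O10Rik, named Tcim in RefSeq. Their medians against EV were -0.97 in WT and -0.91 in HEA cells at 4 h, -1.06 in WT and -0.92 in HEA cells at 8 h, and -0.19 and -0.26 in RA cells at 4 h and 8 h. Mxd3 had 12 ± 1.8 RPKM in WT, 11.7 ± 1.6 in HEA, 16.5 ± 1.8 in RA and 19.9 ± 1.9 in EV cells at 8 h (SD, n = 3 each).

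Protein folding, turnover and autophagy had Dnajb5 and Dnajc22 (co-chaperones of the DnaJ family), Trp53inp2 and Tecpr1 (autophagy factors), Dcaf11 and Rnf122 (of ubiquitin ligases) and Zfand2b. Over the group, medians against EV were -0.75 in WT and -0.75 in HEA cells at 4 h, -1.12 in WT and -0.82 in HEA cells at 8 h, and -0.00 and -0.07 in RA cells at 4 h and 8 h. Dnajb5 was among the 12 genes with the lowest mean difference from EV. Dnajb5 at 4 h had 2.76, 2.05 and 1.06 RPKM in WT cells, 2.45, 1.98 and 2.39 in HEA cells, 6.6, 4.69 and 7.19 in RA cells and 5.66, 6.87 and 6.2 in EV cells. The 8 h libraries of Dnajb5 had 2.05, 2.45 and 3.02 RPKM in WT cells, 2.75, 2.67 and 2.64 in HEA cells, 6.6, 6.35 and 6.91 in RA cells and 6.92, 6.66 and 5.75 in EV cells. RA and EV libraries of Dnajb5 overlapped at both times, with a difference of 0.04 ± 0.19 at 8 h.

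The remaining 19 genes were Fam110c, Mospd1, Nrep, Ctxn1, Ttc9, Fam171a2, Ypel5, Narf, Morn4, Lysmd3, Tmem120b, Tor4a, S100a16, Ccdc136, AI464131 (Myorg in RefSeq), 5730559C18Rik (Inava in RefSeq), 2810408A11Rik, the microRNA gene Mir2861 and the small nucleolar RNA gene Snord61. The median differences from EV were -0.80 in WT and -1.05 in HEA cells at 4 h, -1.14 in WT and -1.12 in HEA cells at 8 h, and -0.25 and -0.38 in RA cells at 4 h and 8 h. Fam110c, a centrosome and spindle pole protein, stood lower in HEA than in WT cells. Fam110c at 4 h had 5.04, 4.5 and 5.3 RPKM in WT cells, 3.09, 2.17 and 2.38 in HEA cells, 3.43, 4.67 and 6.06 in RA cells and 10.5, 8.17 and 8.38 in EV cells. Its values at 8 h were 3.99, 5.01 and 4.27 RPKM in WT cells, 2.64, 3.54 and 2.19 in HEA cells, 5.59, 5.05 and 7.7 in RA cells and 11.1, 12.3 and 12.2 in EV cells. RA libraries of Fam110c lay below all EV libraries at both times and overlapped with WT libraries at 4 h. Mospd1 encodes a motile sperm domain protein. Mospd1 at 4 h had 3.84, 4.0 and 5.87 RPKM in WT cells, 2.79, 2.72 and 4.05 in HEA cells, 9.41, 9.84 and 8.96 in RA cells and 10.4, 5.52 and 10.8 in EV cells. Mospd1 at 8 h had 3.73, 3.54 and 2.21 RPKM in WT cells, 2.66, 3.24 and 3.34 in HEA cells, 6.9, 7.85 and 8.68 in RA cells and 9.94, 11.1 and 10.8 in EV cells. The low EV library of Mospd1 at 4 h was again replicate 2, and it lay within the WT range. Nrep, a regeneration-related protein of neurons and fibroblasts, was the highest of the 12 by level. Nrep at 4 h had 10.3, 10.8 and 10.9 RPKM in WT cells, 8.11, 9.91 and 17.7 in HEA cells, 14.7, 14.4 and 24 in RA cells and 30.7, 23.8 and 31.8 in EV cells. The 8 h libraries of Nrep had 12, 11.6 and 7.93 RPKM in WT cells, 17.2, 12.3 and 17.7 in HEA cells, 18.9, 21.0 and 23.1 in RA cells and 33.4, 29.5 and 33.8 in EV cells. The HEA libraries of Nrep overlapped with the RA libraries at 4 h only. Mir2861 and Snord61 averaged 1.33 and 2.33 reads per library, and their differences rest on almost no reads. Snord61 lies within Rbmx, whose reads cannot be told apart from it here.

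**Figure D2:**
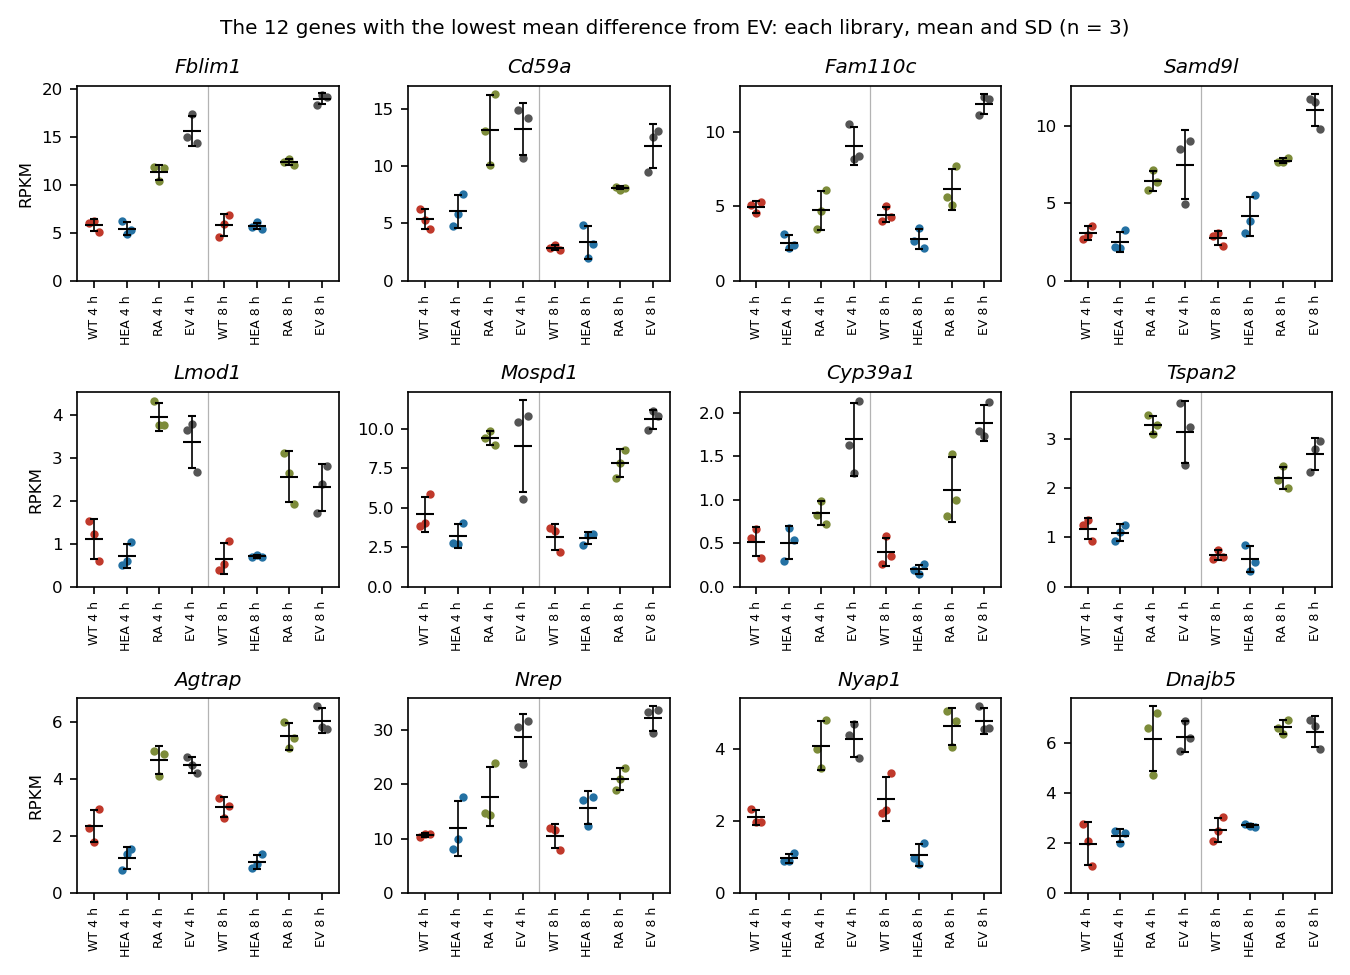
Level in RPKM (y axis, from 0) of the 12 genes with the lowest mean difference from EV, in each library (points), with the mean and SD of 3 libraries (bars), for WT, HEA, RA and EV cells at 4 h and at 8 h. Fblim1 lies lowest in WT and HEA cells and between them and EV in RA cells. Agtrap and Nyap1 lie lower in HEA than in WT cells.

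The set was next described in RA cells. Against EV cells, 15 of the 143 genes were lower and 0 higher in RA cells at 4 h, where 2.73% of all tested genes were lower and 2.58% higher (limma, adjusted p under 0.05). At 8 h, 9 were lower and 0 higher, where 1.29% of all tested genes were lower and 1.49% higher. An unadjusted p under 0.05 was reached by 39 of the genes (27.3%) at each time, against 20.4% of all tested genes at 4 h and 17.6% at 8 h. RA cells lay below EV cells for 96 genes at 4 h and for 97 at 8 h, where 45.2% and 48.7% of all tested genes did. All 9 genes called at 8 h were called at 4 h. These counts use the EV libraries that also chose the genes, so they are not independent of the rule. With only the RA and EV libraries of that time in the fit, no gene was called at 4 h, and 28 were lower and 6 higher at 8 h. At 8 h, 13 were lower and 2 higher with limma-voom on recovered reads, and 14 lower and 2 higher without the 3 libraries that stood apart. Shares of all tested genes under these alternative fits are not given, and the 1.29% and 1.49% above do not apply to them. In the authors' deposited table, 137 of the genes had an adjusted p at 4 h, and 22 were lower in RA cells. Of its 11778 genes with an adjusted p at that time, 3.13% were lower. At 8 h, 32 of 136 were lower and 8 higher. Of its 11722 genes with an adjusted p at 8 h, 8.16% were lower and 7.65% higher.

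Ctxn1, a neuronal membrane protein known as cortexin 1, differed most among the called genes at both times. It had 4.27, 2.31 and 4.12 RPKM in RA cells, against 10.0, 12.7 and 10.2 RPKM in EV cells at 4 h, a log2 difference of -1.53 ± 0.18 (SE) and an adjusted p of 0.000237 by limma. At 8 h it had 4.04, 4.55 and 6.07 RPKM in RA cells, against 11.6, 10.3 and 12.5 RPKM in EV cells, a difference of -1.16 ± 0.18 (adjusted p = 0.00219, limma). Ctxn1 was lower in RA than in WT cells at 4 h, and the only gene of the set so called: WT cells exceeded RA cells by 0.71 ± 0.18 (adjusted p = 0.00453, limma). Srpx2 had 4.01, 4.76 and 3.65 RPKM in RA cells, against 9.53, 6.85 and 8.01 RPKM in EV cells at 4 h, and 3.69, 4.86 and 5.61 RPKM in RA cells, against 7.85, 9.4 and 9.48 RPKM in EV cells at 8 h. Ttc9, a tetratricopeptide repeat protein, had 1.26, 1.21 and 1.33 RPKM in RA cells, against 2.86, 2.46 and 1.97 RPKM in EV cells at 4 h, and 1.38, 1.22 and 1.44 RPKM in RA cells, against 2.82, 2.47 and 3.24 RPKM in EV cells at 8 h. Rftn2, raftlin 2, had 3.1, 3.17 and 3.25 RPKM in RA cells, against 4.89, 5.21 and 5.56 RPKM in EV cells at 4 h, and 3.42, 3.52 and 3.54 RPKM in RA cells, against 6.31, 5.64 and 6.67 RPKM in EV cells at 8 h. RA and EV libraries did not overlap for Srpx2, Ttc9 or Rftn2. Their adjusted p-values at 8 h were 0.0031, 0.0031 and 0.00355 (limma), for differences of -0.86, -0.85 and -0.75. Ctxn1, Srpx2, Ttc9 and Rftn2 were the 4 genes that stayed called at both times whichever single library was left out.

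The other 5 genes called at both times were Fam110c, Fblim1, 1810011O10Rik, Ddah2 and Kctd11. Fam110c differed by -0.89 ± 0.18 at 4 h and -0.93 ± 0.18 at 8 h, and Fblim1 by -0.45 ± 0.12 and -0.59 ± 0.12. For 1810011O10Rik, the 3 libraries read 4.05, 5.05 and 5.37 RPKM in RA cells, against 10.4, 7.2 and 8.81 RPKM in EV cells at 4 h, and 6.54, 7.63 and 9.72 RPKM in RA cells, against 16.3, 16.9 and 17.9 RPKM in EV cells at 8 h, differences of -0.80 and -1.07. All its EV libraries of 8 h lay above those of 4 h, and RA and EV did not overlap at either time. Ddah2, an enzyme that breaks down an inhibitor of nitric oxide synthesis, had 15.7, 10.7 and 17.3 RPKM in RA cells, against 21.2, 24.4 and 21.0 RPKM in EV cells at 4 h, and 16.6, 13.8 and 15.1 RPKM in RA cells, against 26.5, 22.9 and 24.1 RPKM in EV cells at 8 h. Kctd11 had 14.4, 13.8 and 19.7 RPKM in RA cells, against 26.7, 28.1 and 24.3 RPKM in EV cells at 4 h, and 20.1, 20.3 and 23.4 RPKM in RA cells, against 30.1, 31.9 and 35.1 RPKM in EV cells at 8 h. The differences of Ddah2 were -0.62 and -0.68, and those of Kctd11 -0.72 and -0.59.

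Called at 4 h and not at 8 h were Tnnt2, Ptk2b, Gpc2, Lag3, Cyp39a1 and Pou6f1. Tnnt2 had 1.38, 1.23 and 2.17 RPKM in RA cells, against 3.48, 3.96 and 2.97 RPKM in EV cells at 4 h (-0.94 ± 0.27), and Ptk2b had 6.09, 5.01 and 6.93 RPKM in RA cells, against 10.1, 15.9 and 9.3 RPKM in EV cells (-0.89 ± 0.21). The muscle gene Tnnt2 and the kinase gene Ptk2b thus lay lower in every RA than in every EV library. Gpc2 had 1.17, 1.01 and 1.16 RPKM in RA cells, against 2.69, 2.48 and 2.07 RPKM in EV cells at that time (-0.85 ± 0.18), and Lag3 had 0.507, 0.487 and 0.475 RPKM in RA cells, against 1.05, 1.56 and 1.19 RPKM in EV cells (-0.83 ± 0.21). Reads of Lag3 were few, 14.6 per library on average. Gpc2 shares its place with Stag3, which overlaps it. Pou6f1 had 2.65, 2.4 and 2.68 RPKM in RA cells, against 4.03, 4.54 and 4.65 RPKM in EV cells (-0.67 ± 0.15), and Cyp39a1 differed by -0.70 ± 0.2. At 8 h the 6 genes differed by -0.60, -0.46, -0.43, -0.40, -0.58 and -0.51 in the order given, and whether the times differ was tested only as RA 8 h against 4 h.

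**Figure D3:**
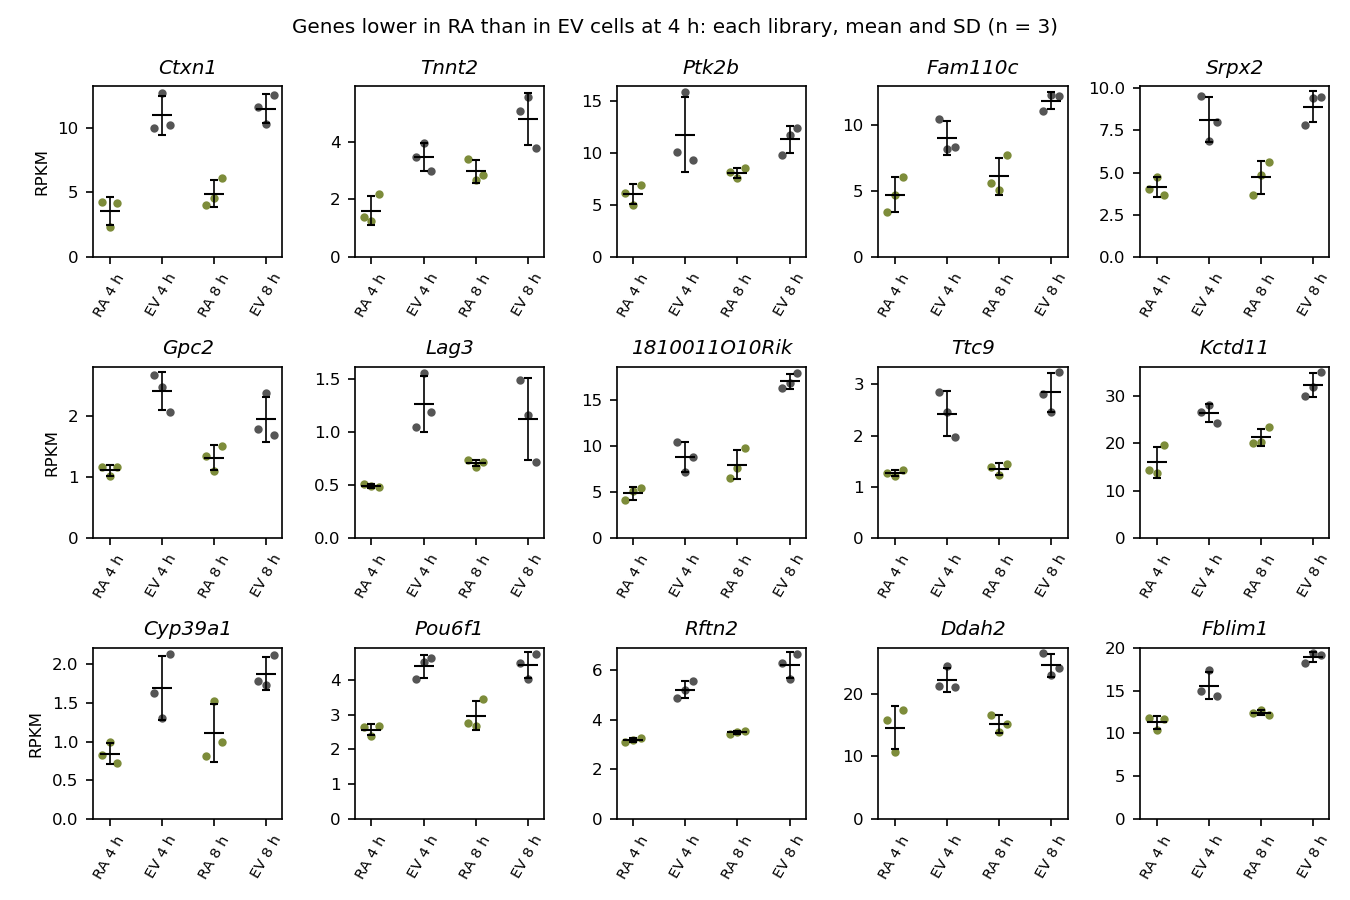
Level in RPKM (y axis, from 0) of the 15 genes called lower in RA than in EV cells at 4 h, in each RA and EV library at 4 h and 8 h (points), with mean and SD of 3 libraries (bars). RA and EV points of 4 h do not overlap in any of the 15 panels.

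Single libraries bore on these calls, and shares of all tested genes without them are not given. At 4 h, 6 of the genes were called without EV replicate 2, 7 without RA replicate 1 and 5 without RA replicate 2, while 10 to 13 were called without each of the other 3 libraries. Cyp39a1 was lost whichever library was left out, and Tnnt2, Lag3 and Fblim1 each without 5 of the 6. Ddah2, Gpc2, Kctd11, Pou6f1 and Ptk2b were lost without EV replicate 2 and also without RA replicate 2, and Kctd11, Ptk2b and Fam110c without RA replicate 1. Pou6f1 was lost without EV replicate 3 as well, and 1810011O10Rik without EV replicates 1 and 3 and RA replicates 1 and 2. The difference of Ddah2 was -0.41 without RA replicate 2 (adjusted p = 0.131, in a range of 0.0109 to 0.134 over its alternatives, limma). At 8 h, 4 genes were called without RA replicate 1, which ended the calls of 1810011O10Rik, Ddah2, Fam110c, Fblim1 and Kctd11, and 6 to 8 without each of the others. Kctd11 was lost at 8 h whichever single library was left out, and Ddah2 without 5 of the 6. Fam110c was also lost at 8 h without RA replicate 2, and Fblim1 without EV replicate 3.

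Most of the genes that lay low in WT and HEA cells were also lower there than in RA cells. In WT against RA cells, 112 of the 143 were lower and 1 higher at 4 h, where 19.9% of all tested genes were lower and 15.0% higher, and 127 were lower at 8 h, where 24.4% were. In HEA against RA cells, 111 were lower at 4 h, where 28.3% of all tested genes were lower, and 118 at 8 h, where 27.0% were. The WT and HEA libraries here are those that chose the genes, so nothing is read from these counts beyond the levels of the RA libraries. A total of 95 genes (66.4%) were lower in all 4 comparisons, as were 6.5% of all tested genes. Median differences were -0.74 for WT and -0.82 for HEA at 4 h, and -0.90 for WT and -0.89 for HEA at 8 h. In none of the 4 comparisons were Ctxn1, Lag3, Mir2861, Ptk2b, Snord61, Srpx2 and Ttc9 lower. Among these, Ctxn1, Srpx2, Lag3, Ptk2b and Ttc9 are the genes described above as lower in RA than in EV cells, so all 3 MycER forms had them below EV at 4 h.

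**Figure D4:**
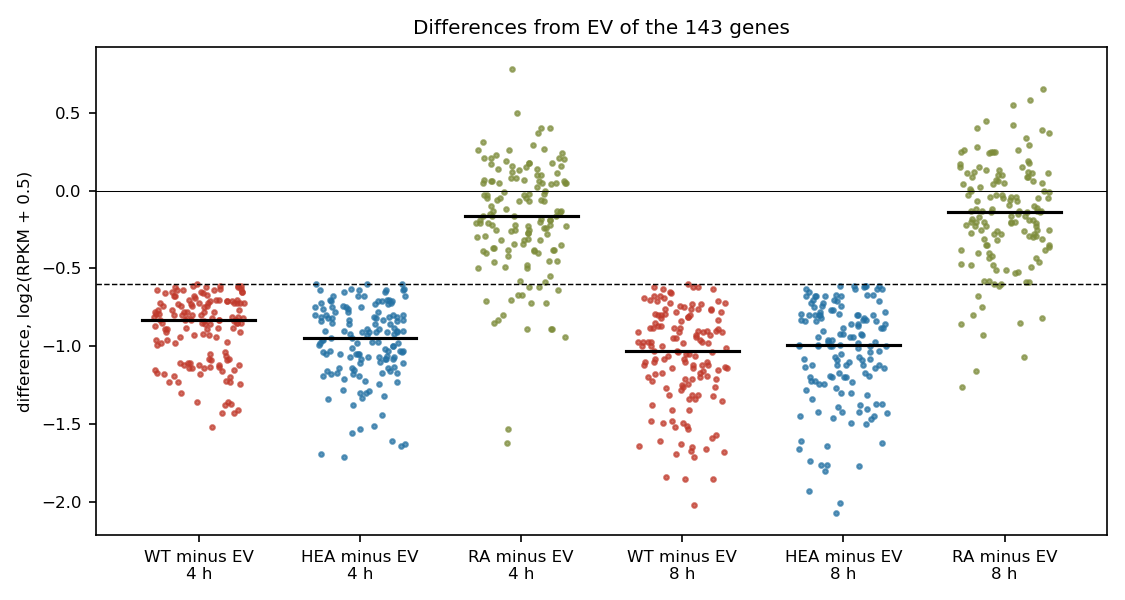
Difference from EV cells of the same time, in log2(RPKM + 0.5), of each of the 143 genes (points, spread sideways at random), in WT, HEA and RA cells at 4 h and at 8 h. Bars mark medians and the dashed line the cut-off of -0.6, below which all WT and HEA points lie by choice. RA points centre on -0.16 and -0.14.

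WT and HEA cells themselves were then compared. At 4 h, WT cells exceeded HEA cells for 20 of the 143 genes and lay below them for 6, where 26.9% of all tested genes were higher and 22.6% lower. At 8 h, 21 were higher and 20 lower in WT cells, where 24.6% of all tested genes were higher and 23.4% lower. The split at 4 h changed with single libraries and with the scaling. WT cells were higher for 9 and lower for 10 genes without WT replicate 1, and higher for 12 and lower for 8 without HEA replicate 2. They were higher for 36 and lower for 4 with quantile normalisation. At 8 h they were higher for 27 and lower for 17 with quantile normalisation, and higher for 16 and lower for 13 without HEA replicate 3. Shares of all tested genes under these alternative fits are not given. Whether such shifts are particular to the set was therefore not tested. The rule holds both groups below EV, which limits how far apart they can lie. Of the genes called at 4 h, 16 (61.5%) were called at 8 h, which is 39.0% of those called at 8 h, and 15 of the 16 kept their direction. Lmcd1 changed direction, with 0.42 ± 0.14 at 4 h and -0.43 ± 0.14 at 8 h, and the call at 4 h was lost without WT replicates 1 and 3 and HEA replicates 2 and 3, the call at 8 h without WT replicate 1 and HEA replicates 2 and 3.

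A group of genes was lower in HEA than in WT cells at both times. Lrrc8e, a subunit of the volume-regulated anion channel, had 7.9, 6.64 and 5.96 RPKM in WT cells, against 3.86, 3.57 and 4.13 RPKM in HEA cells at 4 h, and 6.59, 6.86 and 7.64 RPKM in WT cells, against 2.4, 2.46 and 2.95 RPKM in HEA cells at 8 h. EV cells had 12.2, 11.5 and 12.5 RPKM at 4 h and 12.3, 12 and 11.5 RPKM at 8 h. WT cells exceeded HEA cells for Lrrc8e by 1.28 ± 0.1 at 8 h (adjusted p = 1.68e-09, limma), and no libraries overlapped. Rgs17, a regulator of G protein signalling, had 1.12, 1.14 and 1.5 RPKM in WT cells, against 0.321, 0.309 and 0.455 RPKM in HEA cells at 4 h, and 1.71, 1.44 and 1.4 RPKM in WT cells, against 0.653, 0.437 and 0.501 RPKM in HEA cells at 8 h. Its differences were 1.02 ± 0.16 and 0.97 ± 0.16 (adjusted p = 2.64e-05 and 3.88e-05, limma). Agtrap and Nyap1, whose libraries are given above, differed by 1.16 ± 0.17 and 1.02 ± 0.16 at 8 h (adjusted p = 7.2e-06 and 1.7e-05, limma). At 4 h they differed by 0.73 and 0.83. Fam110c differed by 0.85 ± 0.18 at 4 h and 0.60 ± 0.18 at 8 h. Its second difference was lost without HEA replicate 3 at 8 h. Fam171a2 had 5.93, 7.24 and 11 RPKM in WT cells, against 4.41, 4.23 and 4.29 RPKM in HEA cells at 8 h (0.79 ± 0.22, adjusted p = 0.00597, limma), and it was not called at 4 h (0.18 ± 0.22). Without the 3 libraries that stood apart, the adjusted p of Fam171a2 was 0.0504, in a range of 0.00245 to 0.0504 over its alternatives.

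Other genes were lower in WT than in HEA cells, more of them at 8 h. Trp53inp2, a factor of autophagosome formation, had 2.08, 2.5 and 3.79 RPKM in WT cells, against 5.64, 6.41 and 5.81 RPKM in HEA cells at 8 h, and EV cells 8.77, 10.0 and 11.4 RPKM. Ypel5 had 4.16, 4.58 and 3.57 RPKM in WT cells, against 7.58, 8.51 and 9.61 RPKM in HEA cells at 8 h, and EV cells 14.1, 13.3 and 14.2 RPKM. Pdlim2, a PDZ and LIM domain protein of the cytoskeleton, had 1.14, 1.6 and 1.29 RPKM in WT cells, against 2.2, 3.86 and 3.53 RPKM in HEA cells at 8 h, and EV cells 6.26, 4.43 and 5.4 RPKM. None of these 3 genes overlapped between WT and HEA cells at 8 h. Their differences were -1.0 ± 0.18, -0.98 ± 0.15 and -0.98 ± 0.18 (adjusted p = 7.46e-05, 1.46e-05 and 0.000135, limma). The gene 1810011O10Rik had 4.44, 3.93 and 3.2 RPKM in WT cells, against 8.04, 7.09 and 10.1 RPKM in HEA cells at 8 h, and EV cells 16.3, 16.9 and 17.9 RPKM. It thus lay lowest in WT cells, by -1.03 ± 0.19 against HEA cells (adjusted p = 0.000165, limma). Cmklr1, the chemerin receptor, had 1.23, 1.37 and 0.895 RPKM in WT cells, against 1.78, 1.81 and 1.95 RPKM in HEA cells at 4 h, and 0.63, 0.841 and 0.906 RPKM in WT cells, against 1.57, 2.09 and 2.23 RPKM in HEA cells at 8 h. It differed by -0.50 ± 0.15 and -0.93 ± 0.15, and at 4 h it missed the threshold without WT replicate 3 (adjusted p = 0.0532, in a range of 0.00518 to 0.0827 over its alternatives, limma).

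Among the called genes, the lowest in WT against HEA cells at 4 h were Plekhg2, Narf, Pld2 and Rftn2, before Cmklr1. Plekhg2 had 8.23, 7.75 and 3.63 RPKM in WT cells, against 10.8, 10.5 and 8.89 RPKM in HEA cells at 4 h, a difference of -0.66 ± 0.21. WT replicate 3, with the lowest value, weighed on it: without that library Plekhg2 differed by -0.31 (adjusted p = 0.134, in a range of 0.00346 to 0.134 over its alternatives, limma). Narf, a lamin-binding protein, had 4.49, 4.36 and 3.76 RPKM in WT cells, against 5.44, 6.56 and 7.79 RPKM in HEA cells at 4 h, and 4.22, 6.47 and 4.97 RPKM in WT cells, against 9.68, 9.35 and 10.6 RPKM in HEA cells at 8 h (-0.58 ± 0.14 and -0.88 ± 0.14). Pld2 had 3.88, 3.13 and 2.22 RPKM in WT cells, against 4.64, 4.47 and 4.83 RPKM in HEA cells at 4 h (-0.55 ± 0.15), and Rftn2 had 1.69, 1.6 and 1.68 RPKM in WT cells, against 2.53, 2.49 and 2.93 RPKM in HEA cells (-0.54 ± 0.13). No library of Narf, Pld2 or Rftn2 overlapped between the groups at 4 h.

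**Figure D5:**
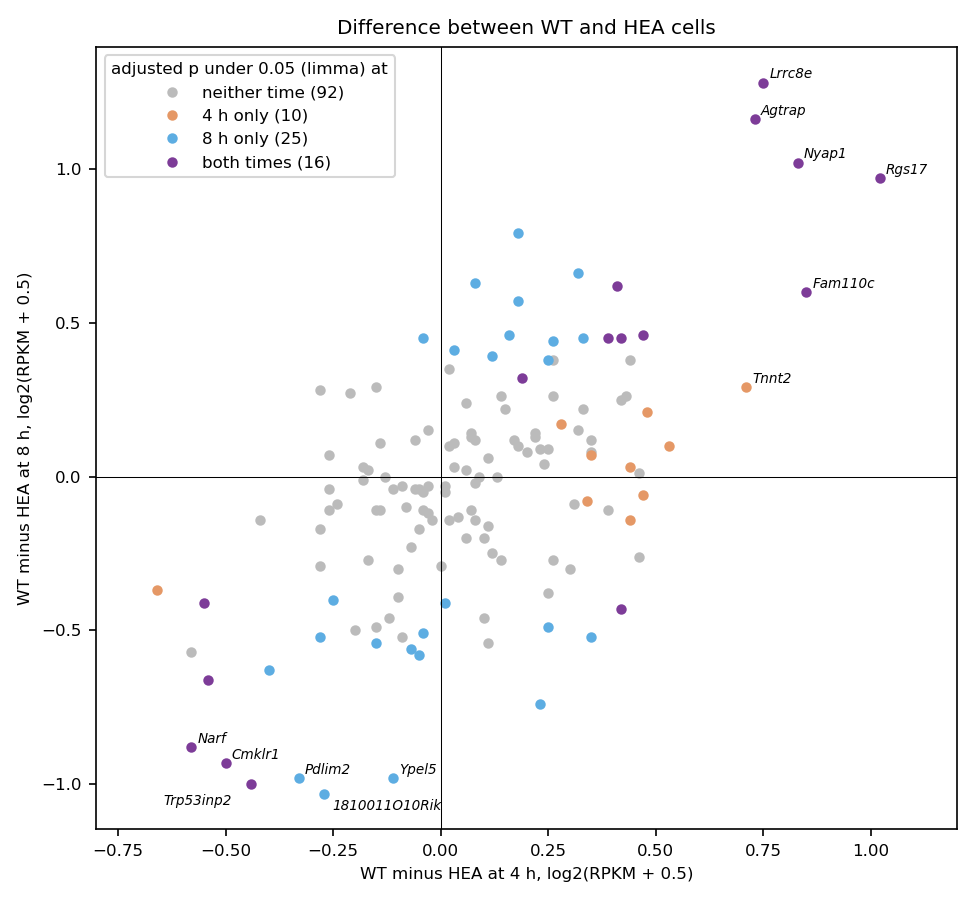
WT minus HEA cells in log2(RPKM + 0.5) at 4 h (x axis) and at 8 h (y axis), 1 point for each of the 143 genes, coloured by the time at which limma's adjusted p was under 0.05. Lrrc8e, Agtrap, Nyap1 and Rgs17 lie at the upper right, higher in WT cells at both times, and Cmklr1, Narf and Trp53inp2 at the lower left.

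Few of the genes were called between 8 h and 4 h in any of the 4 kinds of cells. In EV cells, 0 of the 143 genes differed between 8 h and 4 h, where 0.0245% of all tested genes did, and 23 (16.1%) had an unadjusted p under 0.05, against 11.7% of all tested genes (limma). In RA cells it was also 0, where 0.220% of all tested genes were called, with 24 (16.8%) at an unadjusted p under 0.05, against 9.87% of all tested genes. In each of these 2 comparisons, limma-voom on recovered reads called 1 gene. In WT cells, 3 were higher and 12 lower at 8 h, where 8.46% of all tested genes were called, and with quantile normalisation 1 was higher and 13 lower. In HEA cells, 5 were higher and 6 lower, where 3.33% were. Cd59a, Gja4, Tspan2 and Prmt2 were called in both kinds of cells, the first 3 lower and Prmt2 higher at 8 h. WT cells had 1.82, 2.18 and 2.38 RPKM of Gja4, the gap junction protein connexin 37, at 8 h, against 4.79, 3.89 and 5.08 RPKM at 4 h, a difference of -0.95 ± 0.14 (adjusted p = 0.000633, limma). Gja4, Mmp11 (-0.68 ± 0.12) and Ypel5 (-0.73 ± 0.15) were the 3 genes in WT cells whose call remained without each library in turn. Without the 3 libraries that stood apart Ypel5 differed by -0.46 (adjusted p = 0.0627, in a range of 0.00298 to 0.176 over its alternatives, limma). Cd59a in HEA cells differed by -0.54 without replicate 2 of 8 h (adjusted p = 0.263, in a range of 0.00997 to 0.264 over its alternatives, limma), against -0.83 ± 0.23 with it. The call of Fam171a2 in HEA cells remained without each library in turn, at 4.41, 4.23 and 4.29 RPKM at 8 h, against 8.63, 15.7 and 8.9 RPKM at 4 h (-1.21 ± 0.22, adjusted p = 0.00461, limma). The counts changed with single libraries, and shares of all tested genes in those fits are not given. In WT cells 5 genes were higher and 5 lower without replicate 1 of 4 h. Without replicates 2 and 3 of 4 h, 0 were higher in WT cells and 5 and 8 lower, and without replicates 1, 2 and 3 of 8 h, 0 were higher and 3, 8 and 9 lower. In HEA cells 3, 0 and 14 were higher without replicates 1, 2 and 3 of 4 h, and 4, 3 and 3 lower. Without replicates 2 and 3 of 8 h, 1 and 0 were higher in HEA cells and 2 lower each time. With only the 2 groups in the fit, 0 were called in either kind of cell.

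Genes of related pathways were counted against EV in WT and in HEA cells beside the set, and the difference between WT and HEA cells was not tested for these lists. Of 31 extracellular matrix genes, 0 were higher and 9 lower in WT cells at 8 h, and 8 higher and 1 lower in HEA cells. Across all tested genes, 15.2% were higher and 20.1% lower in WT cells at 8 h, and 20.2% higher and 27.5% lower in HEA cells. Loxl2, which crosslinks collagen, differed from EV by -0.93 ± 0.12 in WT cells (adjusted p = 4.44e-06, limma) and by 0.03 ± 0.12 in HEA cells. Col8a1, a collagen, differed by -0.61 ± 0.10 and 0.07 ± 0.10. Of 28 growth arrest genes, 2 were higher and 14 lower in WT cells, and 9 higher and 6 lower in HEA cells. Gadd45a, a stress-induced brake of the cell cycle, was at 22.7 ± 0.38 RPKM in WT, 42.8 ± 1.7 in HEA and 48.7 ± 2.9 in EV cells at 8 h (SD, n = 3 each), and Ndrg4 differed by -1.06 ± 0.12 in WT and -0.71 ± 0.12 in HEA cells. The 143 genes hold no gene of either list, but the 10 genes left out by name could not enter the set. Of 21 further matrix proteases and inhibitors besides Mmp11 and Mmp19, 7 were lower and 2 higher in WT cells, and 1 lower and 6 higher in HEA cells, with Plat, the tissue plasminogen activator, at -1.34 ± 0.14 and 0.26 ± 0.14, and Adamts7 at -1.87 ± 0.20 and -0.46 ± 0.20.

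Lmod1 and Ankrd1 are targets of actin signalling through SRF and YAP. Of the other 25 such targets, 0 were higher and 5 lower in WT cells at 8 h, and 1 higher and 7 lower in HEA cells. Across all tested genes, 15.2% were higher and 20.1% lower in WT cells. In HEA cells, 20.2% were higher and 27.5% lower. The counts of lower targets thus lay near the shares of all tested genes. These shares are also the background of the lists that follow. Acta1, skeletal muscle actin, differed by -0.69 ± 0.16 in WT and -0.92 ± 0.16 in HEA cells, and Lats2, a kinase of the Hippo pathway, by -0.32 ± 0.08 and -0.09 ± 0.08. Of 39 growth factors and receptors besides Fgf21 and Efnb1, 2 were higher and 16 lower in WT cells, and 7 higher and 11 lower in HEA cells. Angptl4, a lipase inhibitor, differed by -2.0 ± 0.19 and -0.07 ± 0.19, and Met, the receptor of hepatocyte growth factor, by -0.43 ± 0.064 and -0.30 ± 0.064. Of 29 immediate early genes besides Arc, 2 were higher and 12 lower in WT cells, and 4 higher and 14 lower in HEA cells. Sik1, a kinase, differed by 1.01 ± 0.097 and 0.24 ± 0.097, and Btg2, an antiproliferative gene that is also a p53 target, by -1.38 ± 0.19 and 0.48 ± 0.19. Of 33 interferon and inflammation genes besides Tlr2, 0 were higher and 15 lower in WT cells, and 7 higher and 6 lower in HEA cells. Ddx58, the RNA sensor RIG-I, differed by -1.12 ± 0.11 and -0.38 ± 0.11, and Irf1 by -0.67 ± 0.07 and 0.49 ± 0.07. Of 31 adhesion genes besides Itga2, 2 were higher and 15 lower in WT cells, and 5 higher and 6 lower in HEA cells. Itgb3, integrin beta 3, differed by -1.30 ± 0.16 and -0.61 ± 0.16, and Cldn1, a claudin, by -0.84 ± 0.12 and -0.11 ± 0.12.

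Ribosome biogenesis, a textbook target of Myc with no gene in the set, was counted in the same way. Of its 29 genes, 24 were higher and 0 lower in WT cells at 8 h, and 3 higher and 19 lower in HEA cells. For all lists here, the shares of all tested genes are 15.2% higher and 20.1% lower in WT cells. In HEA cells they are 20.2% and 27.5%. Polr1b, a subunit of RNA polymerase I, was at 65.2 ± 1.9 RPKM in WT, 24.1 ± 1.9 in HEA and 36.7 ± 0.45 in EV cells (SD, n = 3 each), and Rrp1b differed from EV by 0.77 ± 0.06 and -0.41 ± 0.06. The clock genes Arntl and Nr1d1, out of 15, differed by -1.89 ± 0.13 and 1.79 ± 0.13 in WT cells and by 0.64 ± 0.13 and -0.72 ± 0.13 in HEA cells. Of 15 clock genes, 4 were higher and 4 lower in WT cells, and 4 higher and 6 lower in HEA cells. TGF-beta and BMP signalling had 2 higher and 12 lower of 37 in WT cells and 8 higher and 7 lower in HEA cells, with Smad3 at -0.65 ± 0.055 and 0.00 ± 0.055, and Tgfbr2 at -0.57 ± 0.067 and 0.29 ± 0.067. Wnt and Notch signalling had 4 higher and 7 lower of 28 in WT cells and 8 higher and 3 lower in HEA cells, with the receptors Fzd7 at 0.88 ± 0.086 and 0.58 ± 0.086, and Fzd4 at 1.51 ± 0.15 and -0.02 ± 0.15. Among 22 p53 targets, 3 were higher and 10 lower in WT cells, and 8 higher and 6 lower in HEA cells, and the death receptor gene Tnfrsf10b differed by -0.47 ± 0.072 in both. Lysosome and autophagy genes had 1 higher and 13 lower of 32 in WT cells and 5 higher and 9 lower in HEA cells, with Gusb at 0.64 ± 0.088 and -0.71 ± 0.088, and Wipi1 at -1.11 ± 0.16 and -0.40 ± 0.16. Sterol and fatty acid synthesis had 4 higher and 11 lower of 30 in WT cells and 1 higher and 10 lower in HEA cells, with Hsd17b7 at -1.07 ± 0.10 and -0.20 ± 0.10, and Acaca at 0.40 ± 0.057 and 0.12 ± 0.057. In RA cells at 8 h, 5 of the 37 TGF-beta and BMP genes, 4 of the 21 further matrix proteases and inhibitors and 4 of the 33 interferon and inflammation genes were higher than in EV cells, where 1.49% of all tested genes were. Each other list had at most 3 genes called in a direction in RA cells at 8 h.

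Level, depth and position of the genes are given as a description, and the level is tied to the rule's filter on RPKM. Their mean level ran from 0.565 to 25.2 RPKM with a median of 6.74, so none is among the most abundant RNAs. Recovered reads averaged 164 per library for the median gene, and 26 of the genes had under 20 reads in some library, which leaves their differences less precise. The genes spanned a median of 15.6 kb on the genome (quartiles 7.68 and 33.8), against 21.2 kb for 12233 tested genes (quartiles 8.32 and 50.9). Neighbours within 100 kb of each other, apart from the protocadherins, were Ctxn1 with Lrrc8e on chromosome 8, Lbh with Ypel5 and Plin3 with Tnfaip8l1 on chromosome 17, and 2810408A11Rik with Kctd11 on chromosome 11. In RA cells Ctxn1 was called lower than in EV cells at both times, while Lrrc8e, whose difference from Ctxn1 was not tested, lay at -0.15 ± 0.1 and -0.14 ± 0.1. For 23 of the genes another measured gene overlaps, such as Rell2 with Fchsd1, Yme1l1 with Mastl and Wipf3 with Scrn1, and since no strand setting of the counting is stated, reads of such pairs cannot be told apart.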

How the data were processed

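The authors deposited RPKM values for 21671 genes in 24 libraries, per the file headers. The authors also deposited, per the file headers, log2 fold changes, p-values and baseMean (normalised counts averaged over the libraries compared) for each MycER form set against EV, and these values are printed only where that table is named. Per the submitters' processing notes, TopHat2 2.0.8, featureCounts 1.4.5-p1, SAMtools, DESeq2 and mm9 were used, with no role or order. Strand setting, annotation and the handling of multiply mapped reads were not stated. Per the labels' protocols, a stranded total RNA kit was used.

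Because RPKM are not counts, limma-trend (3.58.1, R 4.3.3) was fitted to log2(RPKM + 0.5) for the 12268 genes that reached an RPKM of 1 in 3 or more libraries. The fit took the 24 libraries together as 8 group means, which left 16 residual degrees of freedom. Benjamini-Hochberg adjustment was made per comparison over all genes tested, and the threshold was 0.05. The fit was also run on simulated data with independent noise, without library-wide shifts, and nothing is concluded from it here. Differences on this scale understate those of genes of low RPKM. Whole reads were recovered from the steps of the RPKM values and the deposited baseMean. With a tolerance of 0.01 read, 98.33% of the 362673 non-zero values came out whole, and limma-voom was run on these reads as an alternative.

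The genes, the lists of related genes, the roles and the named genes were chosen with earlier results of these data known. A single gene of the set is counted but not reported by name here. Named with values per library are the 12 genes with the lowest mean of the 4 differences from EV, the genes called in RA against EV, up to 5 in each direction in WT against HEA at each time, the 3 of highest level, and the 3 nearest to the cut-off on each side. From each list, up to 2 genes are named by the lowest p between WT and EV cells at 8 h. Genes named for their calls without single libraries, and those given as mean ± SD, were chosen after their values were seen. Same-numbered libraries of different groups correlated at -0.60 to 0.41 in their deviations from group means, and in 0 of 16 comparisons were all 3 correlations over 0.1, so numbers were not taken to pair libraries. Libraries of a group differed by a chi-square of 1.46 to 18.7 per degree of freedom, so none was counted as a copy. Python 3.11.15 with pandas 2.3.3, numpy 2.4.6 and matplotlib 3.10.9 did the rest. Coordinates are given for the RefSeq promoters (GRCm38.p6) only, since the files' build is another.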

Additional observations from a re-analysis of the deposited data

Results flagged for a closer look

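Up to 5 genes in each direction are listed here, those with the largest called differences between WT and HEA cells at each time. Cells with these 2 MycER forms differed from each other, as tested by limma on WT minus HEA directly. At 4 h, WT cells were higher for Rgs17 (1.02 ± 0.16, SE), Fam110c (0.85 ± 0.18), Nyap1 (0.83 ± 0.16), Lrrc8e (0.75 ± 0.1) and Agtrap (0.73 ± 0.17). They were lower for Plekhg2 (-0.66 ± 0.21), Narf (-0.58 ± 0.14), Pld2 (-0.55 ± 0.15), Rftn2 (-0.54 ± 0.13) and Cmklr1 (-0.50 ± 0.15).

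At 8 h, WT cells were higher for Lrrc8e (1.28 ± 0.1), Agtrap (1.16 ± 0.17), Nyap1 (1.02 ± 0.16), Rgs17 (0.97 ± 0.16) and Fam171a2 (0.79 ± 0.22). They were lower for 1810011O10Rik (-1.03 ± 0.19), Trp53inp2 (-1.0 ± 0.18), Pdlim2 (-0.98 ± 0.18), Ypel5 (-0.98 ± 0.15) and Cmklr1 (-0.93 ± 0.15). In all of these genes both forms lay at least 0.6 below EV cells by choice of the set, so the forms differed in how low the gene was and not in the direction against EV.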

How the results depend on the processing

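Alternatives were quantile normalisation, centring on library medians, pseudocounts of 1 and 0.1, no filter on low values, a fit with only the 2 groups compared, a replicate block, limma-voom on recovered reads and leaving out each library, and, chosen after seeing the data, leaving out the 3 libraries that stood apart. The set of 143 genes became 84 with a cut-off of -0.7 and 235 with one of -0.5, and 130 to 164 without single libraries. For RA against EV, the 15 genes at 4 h became 0 with only the 2 groups, and the 9 at 8 h became 34 with only the 2 groups, 15 with quantile normalisation, 15 with voom and 16 without the 3 libraries. For WT against HEA at 4 h, 26 became 40 with quantile normalisation and 8 with only the 2 groups. Over time, the 15 genes in WT cells became 8 with no filter and 0 with only the 2 groups, and the 11 in HEA cells 5 with no filter, 0 with only the 2 groups and 19 without the 3 libraries. The 0 in EV cells became 1 with voom, and the 0 in RA cells 1 with quantile normalisation, 1 with voom and 2 without the 3 libraries. The fit with only 2 groups has fewer residual degrees of freedom, and other causes of these changes were not tested. Shares of all tested genes called under the alternatives are not given, so the counts under them have no background beside them.

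Without single libraries, called genes ranged as follows: RA against EV 5 to 13 at 4 h and 4 to 8 at 8 h, WT against RA 99 to 111 and 120 to 125, HEA against RA 101 to 113 and 113 to 119, WT against HEA 19 to 25 and 29 to 37, and over time 0 to 0 in EV, 3 to 10 in WT, 2 to 17 in HEA and 0 to 0 in RA cells. With a replicate block the counts were 14 and 8 for RA against EV at 4 h and 8 h, 111 and 127 for WT against RA, 111 and 119 for HEA against RA, 23 and 40 for WT against HEA, and 0, 11, 8 and 0 over time in EV, WT, HEA and RA cells. Of 1050 values for 70 named calls under the alternatives, 800 stayed past the threshold, 250 missed it in the same direction and 0 reversed, and 20 calls stayed past it throughout. Depth limits the 26 genes with under 20 reads in some library.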
